A study of Mus musculus with 4 samples.

Results

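The genes described here load peptides onto MHC class I molecules. They were given as a list of 10 genes, Tap1, Tap2, Tapbp, Tapbpl, Calr, Erap1, B2m, H2-T23, H2-M3 and Nlrc5, and were read on the probe sets that name exactly 1 gene, the brightest where a gene had several. By that rule 9 of the 10 were present among 19938 genes. H2-T23 stood only on a probe set shared with the pseudogene H2-T-ps, so its values are given apart. The samples were bone marrow cells of C57BL/6N mice, taken 8 h after the mice were given 1 dose into the peritoneum of either phosphate-buffered saline (PBS) or 50 µg of lipopolysaccharide (LPS), a mixture from Escherichia coli K12 and Salmonella minnesota. LPS is an outer membrane glycolipid of Gram-negative bacteria. Total RNA was hybridised to 4 Affymetrix Mouse Gene ST arrays, PBS replicates 1 and 3 and LPS replicates 1 and 2. The labels give no age or sex of the mice and do not say whether each sample came from 1 mouse. The p-values therefore rest on the spread between these samples, moderated over all genes, and that spread may be partly technical.

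Class I molecules show fragments of the cell's own proteins to CD8 T cells and natural killer cells. Peptides cut by the proteasome are pumped into the endoplasmic reticulum (ER) by the TAP transporter and trimmed there. They are then fitted into a heavy chain paired with beta-2-microglobulin, with the help of tapasin and of chaperones. Interferons raise the expression of many of these genes, and in marrow nearly all nucleated cells carry class I molecules.

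Values are on the log2 scale as deposited, and a difference of 1 is a 2-fold change. The arrays were alike in scale, with a median over genes of 8.01 to 8.03. The neutrophil marker S100a8 had log2 values of 13.32 to 13.44, and the erythroid marker Slc4a1 12.88 to 13.19, on the 4 marrow arrays. Tests are limma's, adjusted by Benjamini-Hochberg over all 19938 genes, and a gene passed at an adjusted p under 0.05. The level of 1 gene cannot be set against that of another on these arrays, so only changes are compared between genes.

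After LPS, 6 of the 9 measured genes rose, namely Tap1, Tapbp, Tapbpl, Tap2, Nlrc5 and Erap1, and 0 fell. Over all genes 2.39% rose and 1.27% fell. B2m, Calr and H2-M3 did not pass. The median change of the 9 was 0.68, against -0.01 over all genes. In all 9 the 2 groups were apart, with the LPS arrays the higher pair, which held for 20.4% of all genes. Tap1 was the 1 member that at least doubled on its brightest probe set. The smallest two-sided p of an exact permutation test with these 4 arrays is 0.333, so the calls rest on the moderated limma fit. With every probe set of the array in the fit, and each member still read on its brightest, 3 passed, Tap1, Tapbp and Tapbpl. In that fit 17 of the 19 Nlrc5 probe sets passed, but not the brightest. With an unmoderated linear model 0 members passed. There 6 members and 2185 genes had an unadjusted p under 0.05. These are not the same 6 members as above, since H2-M3 is among them and Tap2 is not.

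**Figure D1:**
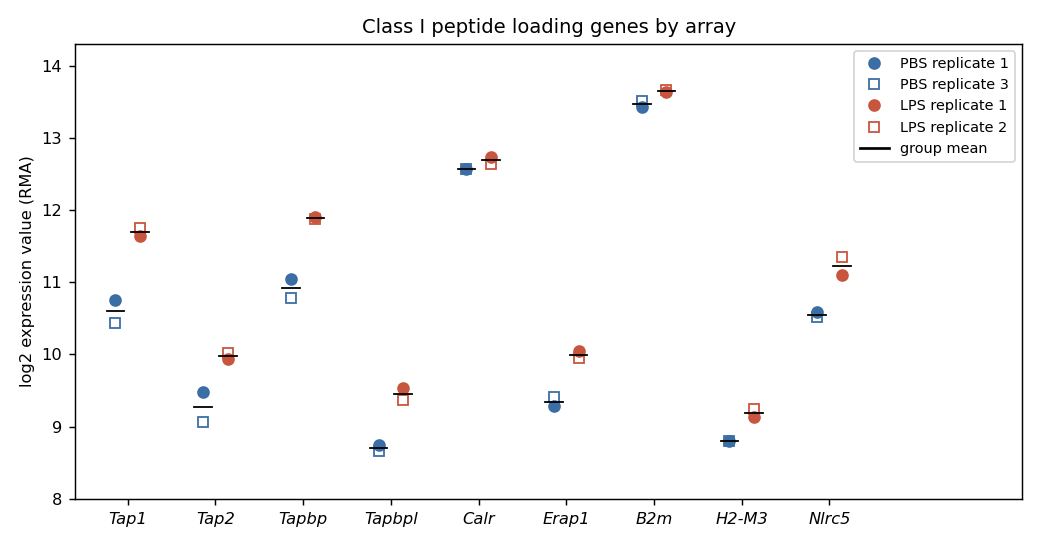
Log2 expression value (vertical axis) of the 9 measured genes on each array, with PBS in blue, LPS in red and black bars for group means (n = 2 each). For each gene the LPS arrays are the higher pair, by the most for Tap1 and by little for B2m and Calr.

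Tap1 and Tap2 encode the 2 subunits of the peptide transporter, and both rose. Tap1 had log2 values of 10.75 and 10.44 in PBS replicates 1 and 3 and of 11.64 and 11.75 in LPS replicates 1 and 2. The LPS arrays lay well above the PBS arrays, and PBS replicate 3 was the lowest. The means were 10.60 ± 0.22 and 11.70 ± 0.08 (SD, n = 2 each), a change of 1.10 (SE 0.12) or 2.14-fold (95% interval 1.77 to 2.60) with a limma adjusted p of 0.00221. It ranked 144th among all genes by size of rise. Tap2 had 9.48 and 9.07 in PBS and 9.93 and 10.02 in LPS. The PBS arrays were again the more spread pair, with replicate 3 low. Its change was 0.70 (SE 0.14), 1.63-fold with an interval of 1.30 to 2.03 and a limma adjusted p of 0.036. With LPS replicate 2 left out, which leaves 1 LPS array, Tap2 had a change of 0.66 and no longer passed.

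Tap1 shares its upstream region with Psmb9, which encodes an immunoproteasome subunit and is read in the opposite direction. In RefSeq (GRCm38.p6) the starts of Tap1 and Psmb9 lie 226 bases apart, so the 250 bases before either start have 225 bases in common. The region is printed because both genes it serves rose. It is chr17:34187306-34187555 on the + strand of GRCm38.p6, 5′ to 3′, with a CCAAT box and a TGACG element (the core of a cyclic AMP response element) in capitals.
Tap1: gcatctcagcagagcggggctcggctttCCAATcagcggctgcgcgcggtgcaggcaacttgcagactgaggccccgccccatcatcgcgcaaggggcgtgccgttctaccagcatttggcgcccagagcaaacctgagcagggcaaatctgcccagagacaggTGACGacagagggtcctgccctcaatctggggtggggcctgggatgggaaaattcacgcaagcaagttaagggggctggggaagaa
Psmb9 had log2 values of 10.11 and 10.05 in PBS and 10.96 and 11.02 in LPS, a change of 0.91 (SE 0.09, limma adjusted p = 0.00127). In RefSeq's gene order Psmb9, Tap1, Psmb8 and Tap2 follow one another, and all 4 rose, Psmb8, another immunoproteasome subunit gene, by 0.72 (SE 0.13, limma adjusted p = 0.023). For the measured genes on either side of this run no rise passed. The class II gene H2-Ob, next to Tap2, fell by 0.74 (limma adjusted p = 0.0231), and H2-DMa, next to Psmb9, had -0.22 (adjusted p = 0.351).

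Tapbp encodes tapasin, the bridge between TAP and the empty class I molecule, and Tapbpl encodes its relative TAPBPR, which exchanges peptides outside the loading complex. Both rose. Tapbp had log2 values of 11.05 and 10.79 in PBS and 11.90 and 11.88 in LPS. The LPS arrays nearly coincided, and PBS replicate 3 was the lowest. The change was 0.97 (SE 0.11), or 1.96-fold (95% interval 1.65 to 2.34), with a limma adjusted p of 0.00255. Tapbpl had 8.75 and 8.66 in PBS and 9.54 and 9.38 in LPS. Here the 2 PBS arrays lay close together. The change was 0.75 (SE 0.10), 1.69-fold with an interval of 1.44 to 1.97 and a limma adjusted p of 0.00531. A pair of further probe sets is annotated to Tapbp together with Rps3a1, a ribosomal protein gene, and these had -0.06 and -0.07, so they did not follow the tapasin probe set.

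Calr encodes calreticulin, a lectin chaperone that holds the newly folded heavy chain in the loading complex and serves most other glycoproteins of the ER as well. Its log2 values were 12.57 and 12.56 in PBS and 12.74 and 12.64 in LPS. The LPS arrays lay slightly above the PBS arrays. The change was 0.12 (SE 0.09), 1.09-fold with an interval of 0.94 to 1.26 and a limma adjusted p of 0.585. The upper bound lies below the lower bounds of Tap1, Tapbp, Tapbpl, Tap2, Nlrc5 and Erap1, though these differences between genes were not tested.

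Erap1 encodes the ER aminopeptidase that trims peptides to the length class I binds. Its log2 values were 9.28 and 9.41 in PBS and 10.04 and 9.95 in LPS. The groups were clearly apart, with a spread of 0.09 and 0.07 (SD) within them. The change was 0.65 (SE 0.09), 1.57-fold with an interval of 1.35 to 1.83 and a limma adjusted p of 0.00944. With every probe set in the fit the limma adjusted p was 0.0614.

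**Figure D2:**
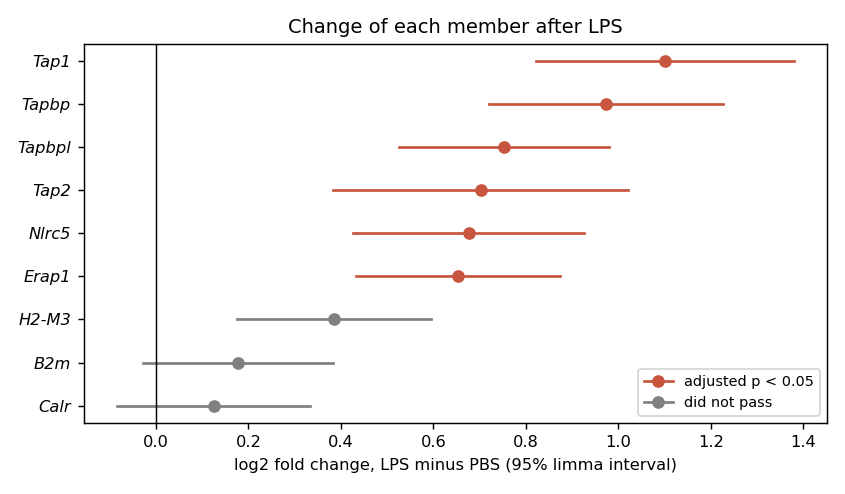
Log2 fold change of each gene, LPS minus PBS (horizontal axis), with its 95% limma interval, in red where the adjusted p was under 0.05 and in grey otherwise. Tap1 and Tapbp stand at 1.10 and 0.97, and the intervals of Calr and B2m include 0.

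B2m encodes beta-2-microglobulin, the light chain that all class I molecules share. Its log2 values were 13.43 and 13.51 in PBS and 13.64 and 13.66 in LPS. Both LPS arrays were higher than either PBS array. The change was 0.18 (SE 0.09), 1.13-fold with an interval of 0.98 to 1.30 and a limma adjusted p of 0.396. These values lie near the top of the scale, whose highest value was 14.52. The B2m promoter is shown because its upstream region holds 3 of the 4 elements searched, as does that of H2-M3, not printed whole. It is chr2:122147437-122147686 (+ strand, GRCm38.p6), 5′ to 3′. In capitals, from left to right, are an interferon-stimulated response element (ISRE, searched as a pair of GAAA words with any 2 bases between them), a TGACG element and a CCAAT box read on the other strand (ATTGG).
B2m: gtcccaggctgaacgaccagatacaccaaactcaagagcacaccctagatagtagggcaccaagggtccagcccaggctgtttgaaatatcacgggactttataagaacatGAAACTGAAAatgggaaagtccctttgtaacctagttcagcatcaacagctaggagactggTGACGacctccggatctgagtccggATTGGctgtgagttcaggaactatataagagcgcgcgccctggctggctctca

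The heavy chains on the list are non-classical. H2-M3 presents peptides that begin with formylmethionine, as bacterial and mitochondrial proteins do. Its log2 values were 8.80 and 8.80 in PBS and 9.13 and 9.24 in LPS. The PBS arrays were all but equal and both LPS arrays lay above them. The change was 0.39 (SE 0.09), 1.31-fold with an interval of 1.13 to 1.51, and the limma adjusted p was 0.0699, so it did not pass over all genes. H2-T23 encodes Qa-1, which shows leader peptides of other class I chains to the CD94-NKG2A receptor of natural killer cells. The probe set it shares with H2-T-ps had 10.20 and 10.06 in PBS and 10.80 and 10.87 in LPS. Both LPS arrays were higher. In the fit of all 35556 probe sets its change was 0.71 (SE 0.10, limma adjusted p = 0.0479), and it cannot be told which of the 2 genes gave the signal.

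Nlrc5 encodes a transcriptional activator that acts at class I heavy chain genes, B2m and Tap1. It was read by 19 probe sets, more than any other member, and each of them was higher after LPS. The brightest, which stands for the gene, had log2 values of 10.58 and 10.52 in PBS and 11.10 and 11.35 in LPS. The LPS arrays lay above the PBS arrays and were the more spread pair. The change was 0.68 (SE 0.11), 1.60-fold with an interval of 1.34 to 1.90 and a limma adjusted p of 0.0147. With LPS replicate 2 left out, which leaves 1 LPS array, Nlrc5 had a change of 0.56 and no longer passed.

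This brightest probe set had the smallest change of the 19. Over all 19 the change ran from 0.68 to 1.65 with a median of 1.39. In all 19 the groups were apart with LPS higher (20.4% of all genes, each on its brightest probe set). That share was not computed over all probe sets. In the fit of every probe set, where 355 of 35556 rose, 17 of them passed (limma). The brightest was not among these (adjusted p = 0.087). With the mean of its probe sets in place of the brightest, Nlrc5 had a change of 1.32 (SE 0.11, limma adjusted p = 0.000387), against 0.68 for the brightest alone. The PBS mean of every Nlrc5 probe set, 7.37 at the lowest, lay above the lower quartile of all genes (6.69). The probe sets read parts of 1 gene and are not replicates of the condition. The next measured gene in RefSeq's order, 9330175E14Rik, rose too, by 1.05 (SE 0.14, limma adjusted p = 0.00531).

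**Figure D3:**
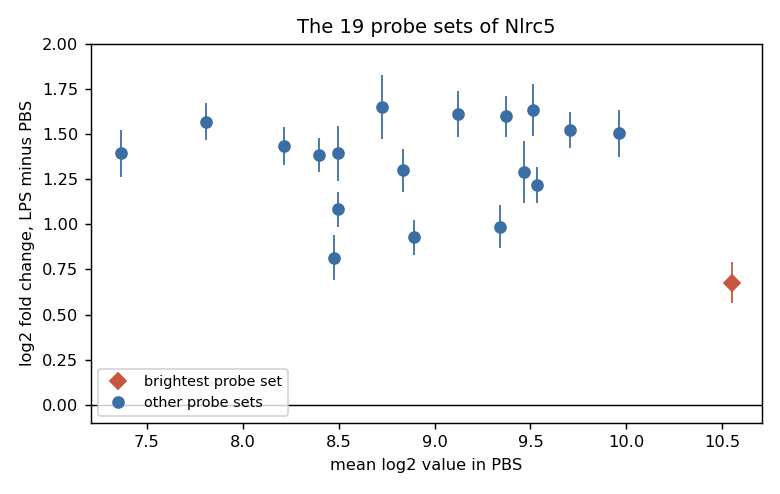
The 19 probe sets of Nlrc5, with the mean log2 value in PBS (horizontal axis) against the log2 fold change, LPS minus PBS (vertical axis), and the limma SE as bars. The brightest probe set, the red diamond, has the smallest change, 0.68.

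Upstream sequences from RefSeq were used for 7 of the 10 listed genes, Tap1, Tapbp, Calr, Erap1, B2m, H2-T23 and H2-M3. The Erap1 window, chr13:74639603-74639852, lies inside the gene's RefSeq span, which begins at 74639573. Sequence before that first base of Erap1 was not searched. In the 250 bases before the start, searched on both strands, a CCAAT box stood in 6 of the 7 (34.5% of 27025 promoters, 1 per gene) and TGACG in 3 (17.9%). An ISRE stood in 2, B2m and H2-T23 (3.04%), and the gamma-activated site TTCNNNGAA in 1, H2-M3 (7.18%). Among the 357 genes of the whole array that rose and have a promoter in the table, an ISRE stood in 16.0%. Tap1 and Tapbp, which had the largest rises by brightest probe set, hold neither an ISRE nor a gamma-activated site of these letters in this window.

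In B2m and H2-M3 the TGACG element and the box ATTGG were separated by the same 20 bases, and so they were in the classical heavy chain genes H2-K1 and H2-D1. This spacing was noticed in the sequences and then counted on either strand. It stood in 2 of the 7 listed genes with a promoter, in 2 of 16 promoters of the heavy chain list, in 25 of all 27025 promoters (0.0925%) and in 0 of the 357 genes that rose. Such a pair, with the X and Y boxes bound by RFX, CREB and NF-Y factors, is known from class I and class II promoters as part of the module at which NLRC5 and CIITA act. The 4 stretches are set side by side, each 50 bases, 5′ to 3′ along the gene, with both boxes in capitals. They are chr2:122147599-122147648 (+), chr17:37270178-37270227 (+), chr17:34000349-34000398 (-) and chr17:35262983-35263032 (+) of GRCm38.p6.
B2m: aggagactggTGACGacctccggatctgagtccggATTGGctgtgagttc
H2-M3: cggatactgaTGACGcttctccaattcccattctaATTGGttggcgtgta
H2-K1: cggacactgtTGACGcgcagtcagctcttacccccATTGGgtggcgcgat
H2-D1: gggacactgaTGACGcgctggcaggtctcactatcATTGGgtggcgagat
A match of letters is a description and does not show binding. B2m and H2-M3 did not pass, and H2-K1 and H2-D1 stood only on probe sets shared between them.

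The other genes of the class I pathway were read from 7 lists, and the lists differed in how many members passed. Of the 6 immunoproteasome and activator genes 5 rose and 0 fell (2.39% and 1.27% of all genes), with a median change of 0.76. Psmb10, a catalytic immunoproteasome subunit, changed most with 1.22 (SE 0.09, limma adjusted p = 0.000247), from 9.81 to 11.03, followed by Psmb9. Of 15 measured class I and class I-like heavy chain genes 4 rose and 0 fell around a median of 0.10. The median was 0.036 without PBS replicate 1, 0.041 without LPS replicate 2 and 0.17 without LPS replicate 1. It includes H2-M1, H2-M2, H2-M5, H2-M10.1 and H2-M11, whose means lay under the lower quartile of all genes (6.69). The list's summed level, the log2 of the added linear values, was 12.56 to 12.67 in PBS and 13.12 to 13.24 in LPS. The largest changes were those of H2-T24 (0.86, limma adjusted p = 0.00603) and H2-Q4 (0.84, limma adjusted p = 0.00667). Some heavy chain genes share probe sets on this array, as H2-K1 and H2-D1 do, so signal may be shared between close relatives. Without PBS replicate 1 a heavy chain gene fell as well, 1 in all.

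The chaperones that work beside calreticulin had small changes. Of 7 ER loading partners and translocon genes 0 passed in limma in either direction (2.39% of all genes rose), with a median of 0.11 (0.06 without PBS replicate 1). Canx, which encodes the lectin chaperone calnexin, had 0.08, and Pdia3, the disulfide isomerase of the loading complex, had 0.21. Of 15 ER folding and unfolded protein response genes 1 rose and 0 fell. Their median was 0.29 (-0.01 over all genes), with 13 positive values. The 1 that rose was Ddit3, a transcription factor of ER stress (0.50, limma adjusted p = 0.0381). In this list 3 genes rose without PBS replicate 3 and 0 without LPS replicate 1. Among 6 cytosolic and endosomal peptidases the leucine aminopeptidase gene Lap3 alone rose (0.69, limma adjusted p = 0.0301), and 0 rose without LPS replicate 1. The list's median was 0.07, and 0.032 to 0.15 with 1 array left out.

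Of 13 transcription regulators of class I genes 3 rose and 0 fell (2.39% and 1.27% of all genes). Their median was -0.04 (-0.01 without LPS replicate 2, -0.02 without LPS replicate 1). Stat2, a signal transducer of type I interferon receptors, changed by 1.33 (limma adjusted p = 0.00043) and Irf1, an interferon-induced factor, by 1.30 (limma adjusted p = 0.000427). Members of the complex that binds the X and Y boxes did not pass, with Rfx5 at 0.11, Rfxank at -0.14 and Nfya at -0.04. Ciita, the class II counterpart of Nlrc5, had -0.19 (limma adjusted p = 0.526).

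Among receptors that read class I molecules no rise passed. Of 8 measured genes 0 rose and 2 fell (2.39% and 1.27% of all genes), Klrd1 and Cd8b1, with a median of -0.11. Klrd1 encodes CD94, which recognises Qa-1. It had log2 values of 8.19 and 8.39 in PBS and 7.39 and 7.41 in LPS, a change of -0.89 (limma adjusted p = 0.00239), while Klrc1, which encodes its partner NKG2A, had -0.19 (limma adjusted p = 0.497). Cd8b1, a chain of the CD8 co-receptor, had -0.52 (limma adjusted p = 0.0411), and Cd8a had 0.05. In this list 1 gene fell without PBS replicate 3, where the median was 0.0115. Without LPS replicate 2, 1 rose and 1 fell around a median of 0.0045.

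**Figure D4:**
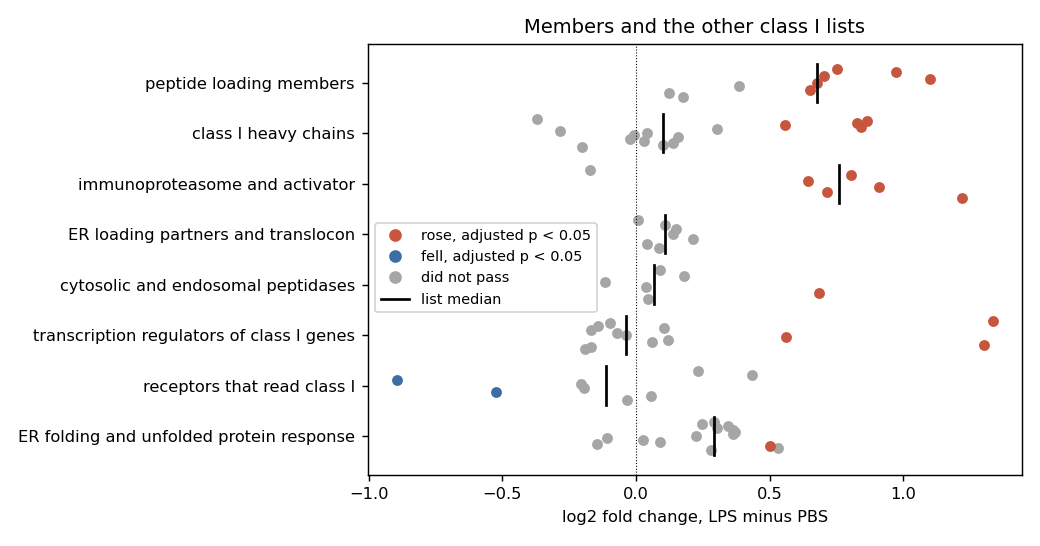
Log2 fold change, LPS minus PBS (horizontal axis), of each gene in the loading set and in 7 further class I lists, 1 point per gene, red for rises and blue for falls that passed, grey otherwise, with black bars for list medians. Rises stand in 6 of 9 loading genes and 5 of 6 immunoproteasome and activator genes (2.39% of all genes). Of 15 ER folding genes 1 rose, and 13 have positive values around a median of 0.29 (-0.01 over all genes).

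Of 71 markers of the marrow's cell types in 9 lists, 3 rose (4.23%, against 2.39% of all genes) and 11 fell (15.5%, against 1.27%). In summed level the groups overlapped for the mature B-cell, natural killer, and endothelial and stromal lists, and were apart for the others. The part of these lists in the changes of the loading genes was not tested. In bulk RNA fewer cells of a type and less RNA per cell cannot be told apart. Of 10 neutrophil markers 0 rose and 2 fell (median -0.22). Their summed level, the log2 of the added linear values, was 16.20 to 16.30 in PBS and 15.92 to 16.06 in LPS. Of 9 mature B-cell markers 0 rose and 2 fell (median -0.24). They were low in LPS replicate 1 and not in LPS replicate 2, with a median deviation from each gene's mean of -0.32 and 0.11. Of 9 T-cell markers 0 passed in limma (median -0.15). Of 8 natural killer markers 1 rose and 1 fell (median -0.06), and of 9 monocyte and macrophage markers 1 rose and 3 fell (median -0.09). The dendritic list was the 1 with a higher summed level on both LPS arrays, 11.92 to 12.00 against 11.81 to 11.85. Of its 8 markers 1 rose, the interferon-inducible Bst2 (1.60), and 1 fell, Cd209a (-2.02), and the list's median was -0.22. The higher sum rests on Bst2, which had means of 9.15 in PBS and 10.75 in LPS, while 6 of the 8 changes were negative. Of 5 neutrophil precursor and 5 erythroid markers 0 passed, with medians of -0.15 and -0.20.

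The 8 endothelial and stromal markers had a median of 0.07, with 0 rises and 2 falls. Their summed level was 13.62 in 1 PBS array and 14.22 in the other, and the stromal collagen gene Col1a1 stood at 11.99 in PBS replicate 1 and 13.33 in PBS replicate 3. Without PBS replicate 1 the changes were 1.25 (Tap1), 1.10 (Tapbp), 0.91 (Tap2), 0.79 (Tapbpl), 0.71 (Nlrc5) and 0.59 (Erap1). In the same order they were 0.95, 0.84, 0.50, 0.71, 0.64 and 0.72 without PBS replicate 3. Whether the stromal difference bears on the loading genes was not tested.

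Genes next to the members on the chromosome were read as well. Among the 2 nearest measured genes on each side of each listed gene, 33 lay outside the class I lists. Of these 2 rose (6.06%, against 2.39% of all genes) and 1 fell (3.03%, against 1.27%), with a median of -0.03. The 2 that rose were 9330175E14Rik beside Nlrc5 and Daxx, a histone chaperone gene near Tapbp (1.18, SE 0.14, limma adjusted p = 0.00292). The 1 that fell was H2-Ob, given above. These neighbours and the promoter spacing were chosen for description after the values were seen.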

How the data were processed

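The deposited table holds log2 expression values per probe set that the authors made with RMA, per the submitters' processing notes. The RMA version is not given in the sources used here, nor is its probe annotation, and the log2 scale was read from the values, 2.76 to 14.52 with near-equal quantiles. RMA equalises the arrays' distributions, so a shift common to most genes would not be seen. Of 35556 probe sets, 21789 named exactly 1 gene in the platform annotation, 1621 several and 12146 none here. The brightest stood for a gene. No filter was applied. LPS and PBS were compared with limma 3.58.1 in R 4.3.3 (lmFit, eBayes, two-sided), with all 4 arrays, no covariate, 2 residual and 5.59 prior degrees of freedom. The fit was tested on simulated data. For arrays, their number limits the precision.

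The members and lists were chosen with earlier results of these data known. Named genes are all members and, per list, up to 2 largest rises and falls past the threshold, or the 2 brightest where none passed; others were chosen after their values were seen. Alternatives were array centring, a low-value filter, trend and robust eBayes, no moderation, all probe sets, averaged probe sets, a stricter threshold and leaving out each array. Promoters are RefSeq's (GRCm38.p6), and protein sequences were not used here. Plots were made in matplotlib 3.10.9 (Python 3.11.15).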

Additional observations from a re-analysis of the deposited data

Results flagged for a closer look

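A pair of class I probe sets that name several genes, and so lie outside the comparisons above, were higher on both LPS arrays and passed in the limma fit of all probe sets. The probe set of H2-T9, H2-T22 and H2-T10 had a mean of 10.17 ± 0.10 in PBS and 11.46 ± 0.09 in LPS (SD, n = 2 each), a change of 1.29 (SE 0.10, limma adjusted p = 0.00881). That of H2-T23 and H2-T-ps, given above, had 0.71. In all, 7 probe sets shared by class I genes had LPS arrays that all lay above the PBS arrays. By brightest probe set, 20.4% of all genes did. Of the 7, 2 passed, in a fit where 355 of all 35556 probe sets rose. The probe sets shared by the classical genes H2-K1 and H2-D1 had 0.47 and 0.40 (limma adjusted p = 0.104 and 0.19).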

How the results depend on the processing

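Each of the 9 genes kept its positive sign under the 10 alternatives run on it. The number that rose, 6, was also 6 with centred arrays, the low-value filter, trend and robust eBayes, averaged probe sets, and without PBS replicate 1, PBS replicate 3 or LPS replicate 1. It was 4 with LPS replicate 2 left out, 4 at the threshold of 0.01, 3 with every probe set in the fit and 0 in the unmoderated model, and 0 of the 9 fell under any of these. In the fit of every probe set each member was counted by its brightest, while 17 of the 19 Nlrc5 probe sets passed there. Over all genes, 476 rose and 254 fell. The unmoderated model called 0 up and 0 down, with a lowest adjusted p of 0.102. At the stricter threshold 286 rose and 58 fell, and with every probe set 355 rose and 63 fell, or 84.9% up against 65.2%. Leaving out 1 array gave 385 to 696 rises and 127 to 423 falls (127 without LPS replicate 2, 382 without PBS replicate 1, 423 without PBS replicate 3), and the share of rises ran from 55.9% (without PBS replicate 1) to 75.9% (without LPS replicate 2). The median of the receptor list ran from -0.22 to 0.0115 with 1 array left out, turning positive when PBS replicate 3 (0.0115) or LPS replicate 2 (0.0045) was absent. The immunoproteasome median was 0.68 to 0.84 with 1 array left out. The cause of these shifts was not tested. A fit with 1 array left out has 1 array in a group, so its spread comes from the other group's pair, moderated over all genes. Its prior degrees of freedom were 9.92 or 10.9, against 5.59 in the main fit. Its calls are therefore not like for like with those of the main fit. No paired analysis was possible because the groups share only replicate number 1. The 4 arrays and the lack of a background level per probe set limit what can be seen.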
